A study of Cucumis sativus with 4 samples.

Results

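A set of 197 cucumber genes was close to silent in the control leaf libraries and clearly transcribed in both leaf libraries of plants carrying an RNA interference construct against CsTCP18a. Members were chosen from the deposited values themselves: the mean of the RNAi libraries had to reach 10, and each wild type library had to stay under 0.5. The rule was met by 197 of the 17585 genes in the table (1.12%), and by 1.65% of the 11963 genes whose RNAi mean reached 10. Values are scaled CPM, that is, read counts set against a library size (CPM) that had been rescaled before deposit. A gap between the groups is what the rule asked for, so the levels of the members in the groups are described here and not tested.

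The libraries came from the first true leaf of plants 20 days old of the cucumber (Cucumis sativus) inbred line R1461, all transformed through Agrobacterium. The control plants, called wild type in the labels, carried the empty vector. In the RNAi plants the construct held 402 bp of CsTCP18a coding sequence. Each group held 2 libraries, and the labels name no promoter for the construct and do not say how many plants or independent transgenic lines stand behind them. Replicate error is therefore only the spread of these libraries and could be technical. Days lasted 16 h (25 °C) and nights 8 h (18 °C). The libraries held between 18930131 and 27664402 gene-assigned reads.

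TCP proteins are plant transcription factors that control cell proliferation and growth in leaves, flowers and buds. BRANCHED1, the Arabidopsis relative to which the study's title likens CsTCP18a, acts in axillary buds and restrains their outgrowth into branches. RNA interference lowers a transcript by way of small RNAs cut from a double-stranded hairpin. The table gives locus IDs without names, and 0 of them matched the cucumber gene table used here. The members are therefore described by ID, by level and by their place in the ID series. The silencing of CsTCP18a and the leaf identity of the libraries were not analysed here.

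The 197 genes covered a wide range of levels in the RNAi leaves. Their RNAi mean ran from 10.1 to 454 scaled CPM, with a median of 24.3 and quartiles of 14.3 and 45.4. In the RNAi libraries taken singly, the lowest, median and highest member stood at 9.31, 24.7 and 475 scaled CPM in replicate 1 and at 6.57, 21.1 and 434 in replicate 2. In the wild type libraries the median member stood at 0.0874 scaled CPM in replicate 1 and 0.0573 in replicate 2, and the highest at 0.481 and 0.458. Most members were of modest level: 90 had an RNAi mean of 10 to 20 scaled CPM, 64 of 20 to 50, 34 of 50 to 100 and 9 of 100 or more. The signal was concentrated in a few of them, since the 5 highest members held 22.2% and 31 members held 50% of the summed RNAi signal of the set.

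**Figure D1:**
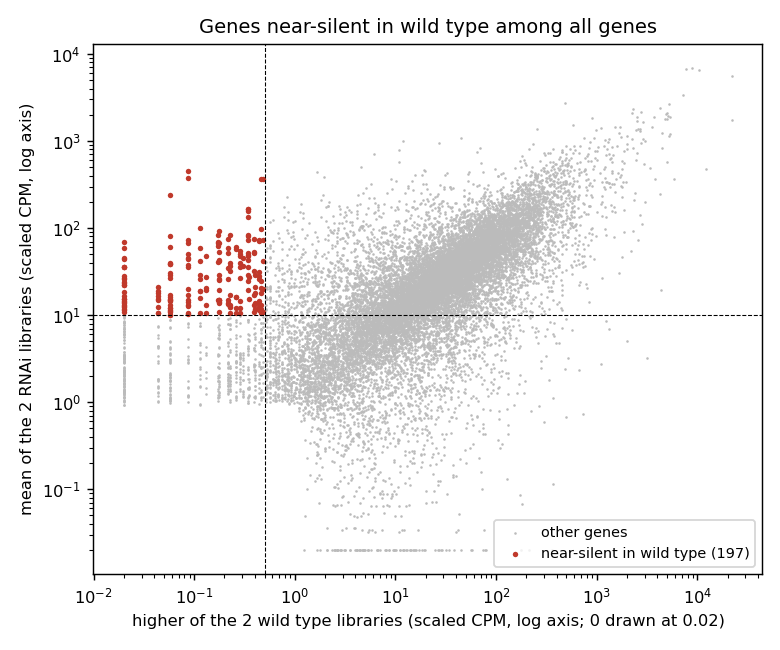
Each point is a gene of the table, with the higher of its wild type libraries on the x axis and its RNAi mean on the y axis, both in scaled CPM on log axes; a value of 0 is drawn at 0.02. The 197 members (red) fill the corner above 10 and left of 0.5 (dashed lines), and other genes continue beyond both lines without a gap.

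The highest member was Csa6G514850, with 475 and 434 scaled CPM in RNAi replicates 1 and 2 and 0.0874 and 0.0573 in wild type replicates 1 and 2. Its RNAi mean was 454 ± 28.5 scaled CPM (SD, n = 2), and 3 reads in all stood behind its wild type values. Csa3G026690 followed with 381 and 375 scaled CPM in the RNAi libraries and 0.0874 and 0 in wild type. These genes were thus near the limit of detection in both wild type libraries and differed little between the RNAi libraries.

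Csa4G154320 had 394 and 344 scaled CPM in RNAi replicates 1 and 2 and 0.481 and 0.286 in the wild type libraries. Csa3G026150 had 388 and 341 scaled CPM in the RNAi libraries and 0.175 and 0.458 in wild type. Csa1G602540 had 262 and 218 scaled CPM in the RNAi libraries and 0.0437 and 0.0573 in wild type. In each of these the first RNAi library was the higher, while the wild type libraries came in either order. The next members by RNAi mean, Csa4G006140, Csa4G639890, Csa5G014290 and Csa1G059750, lay between 134 and 167 scaled CPM. In each of them wild type replicate 2 held 6 reads, against 0, 0, 2 and 0 in the more deeply sequenced replicate 1.

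**Figure D2:**
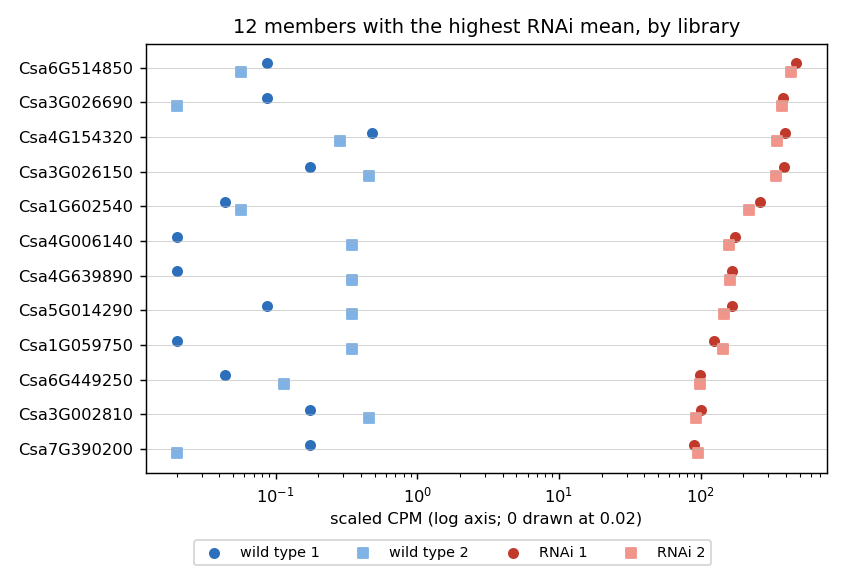
Scaled CPM (log axis, 0 drawn at 0.02) in each of the 4 libraries for the 12 members with the highest RNAi mean. All RNAi points lie at 89.5 or above and all wild type points below 0.5, as the rule requires, and the wild type libraries do not keep one order from gene to gene.

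The reads that these genes left in the wild type libraries were few. Over all 197 members, 606 reads were counted in wild type replicate 1 and 471 in replicate 2, against 234687 and 248528 in the RNAi replicates. Members had at least 1 read in 145 cases in wild type replicate 1 and in 138 cases in replicate 2, and 113 had reads in both. No read was found in either wild type library for 27 members, whereas 56 had 1 to 3 reads, 81 had 4 to 10 and 33 had 11 to 18. After scaling, the wild type replicates summed to 26.5 and 27.0 scaled CPM over the set, and replicate 1 was the higher in 86 members and replicate 2 in 84. The wild type libraries therefore carried like amounts of these transcripts in sum, although the rule put a ceiling on both.

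The ratio of RNAi to wild type, from reads pooled over the libraries of a group, had a median of 253 over the members, with quartiles of 143 and 479. In this summary the 27 members without wild type reads stood at a lower bound, set by 3 reads over both wild type libraries together (0.0744 scaled CPM). The ratio or its bound reached 100 in 159 members and 1000 in 12. Csa5G177700 had the highest RNAi level among members with 0 wild type reads, with 77.4 and 60.2 scaled CPM in RNAi replicates 1 and 2, and was at least 919-fold higher in RNAi leaves. For Csa1G602540 the ratio was 4818, with a 95% interval of 1334 to 39790 that rests on 2 wild type reads. For Csa4G154320, with 16 wild type reads, it was 927 (571 to 1623). These are Clopper-Pearson intervals (exact binomial), which like the bounds cover counting error only; PCR copies are not independent molecules.

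In limma's moderated test of log2(scaled CPM + 1) over 17491 genes, with Benjamini-Hochberg adjustment, 31.0% of the genes were higher in RNAi at an adjusted p under 0.05, and in 42.8% both RNAi libraries stood above both wild type libraries. All 197 members passed in the same direction, which follows from the choice of the members on this contrast. Their log2 fold changes ran from 3.03 to 8.73 with a median of 4.42, against a median of 0.03 over all genes tested, on a scale that understates changes from near 0. In bulk leaf RNA, fewer cells of a type and less RNA per cell cannot be told apart.

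The set had no sharp edge in these data. Just inside the RNAi threshold lay Csa4G190020, with 13.7 and 6.57 scaled CPM in the RNAi libraries (mean 10.12), and Csa6G366250, with 10.4 and 9.86. Just outside lay Csa7G237880, with 10.4 and 9.50 scaled CPM, and Csa3G839810, with 10.6 and 9.06, both without a wild type read. The genes on either side of that line thus differed by less than their own RNAi libraries did. At the wild type threshold, Csa2G083760 (0.481 and 0.401 scaled CPM in wild type, 42.2 and 41.5 in RNAi) and Csa6G428000 (0.481 and 0.286 in wild type, 75.1 and 70.3 in RNAi) lay inside. Csa5G606320 (0.481 and 0.515 in wild type, 22.2 and 20.3 in RNAi) and Csa7G426570 (0.306 and 0.515 in wild type, 10.3 and 12.98 in RNAi) lay outside. With the RNAi threshold kept, a wild type ceiling of 0.1 scaled CPM left 76 genes, 0.25 left 129, 1 gave 317 and 5 gave 925. With the wild type ceiling kept, an RNAi mean of at least 5 gave 296 genes, 20 gave 107, 50 gave 43 and 100 gave 9.

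Among genes of like RNAi level, members were 3.05% of the genes with an RNAi mean of 10 to 20 scaled CPM, 1.38% from 20 to 50, 1.36% from 50 to 100 and 0.478% at 100 or more. Members without a wild type read numbered 13, 12, 2 and 0 in these classes. The wild type ceiling is 0.5 in every class, so the rule asks for a wider gap at a higher RNAi level. A falling share can thus follow from the rule itself. The files give no transcript lengths, so these classes rank genes by reads and not by molecules.

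The RNAi libraries, whose difference the rule did not use, lay close together for most of the members. The log2 ratio of RNAi replicate 2 to replicate 1 was within 0.25 of 0 for 150 of the 197. Its median was -0.05 (SD 0.26 over members), against 0.01 (SD 0.18) over 11594 non-members in the same range of RNAi means. With the sign left aside, the median was 0.146 for members and 0.109 for these non-members, so the members lay somewhat further apart. The share of non-members within 0.25 was not computed. Replicate 1 was the higher in 123 members (62.4%), against 47.5% of the non-members. With 1 library on each side these are descriptions of the 2 libraries and carry no test.

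A minority of members stood apart between the RNAi libraries. The log2 ratio passed 0.5 in either direction for 14 members (7.11%) and for 106 non-members (0.914%). Of the 14, 11 were higher in replicate 1 and 3 in replicate 2, whereas among the non-members 33 were higher in replicate 1 and 73 in replicate 2. In the class of 10 to 20 scaled CPM the share was 8.89% of the members against 2.31% of the non-members, and from 20 to 50 it was 9.38% against 0.547%. From 50 to 100 scaled CPM it was 0 of 34 members against 0.406% of the non-members, and at 100 or more 0 of 9 against 0.373%. The members that stood apart thus all had an RNAi mean under 50 scaled CPM. The higher classes hold too few members to tell their share from that of the non-members.

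The largest such difference was that of Csa3G743950, with 36.2 scaled CPM (1015 reads) in RNAi replicate 1 and 15.2 (477 reads) in replicate 2, a log2 ratio of -1.25. Csa4G190020 had 13.7 and 6.57 scaled CPM, a log2 ratio of -1.06, and only these members differed by more than 2-fold, along with 3 non-members. In the other direction, Csa6G366260 had 11.3 scaled CPM (318 reads) in replicate 1 and 18.8 (588 reads) in replicate 2, a log2 ratio of 0.72. Csa6G366270, at the next ID, had 11.03 and 16.6 scaled CPM and was another of the 3 members higher in replicate 2 by a log2 ratio over 0.5. The other neighbour of Csa6G366260, Csa6G366250, had 10.4 and 9.86. Each of these genes was near-silent in both wild type libraries, with 5 wild type reads or fewer.

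**Figure D3:**
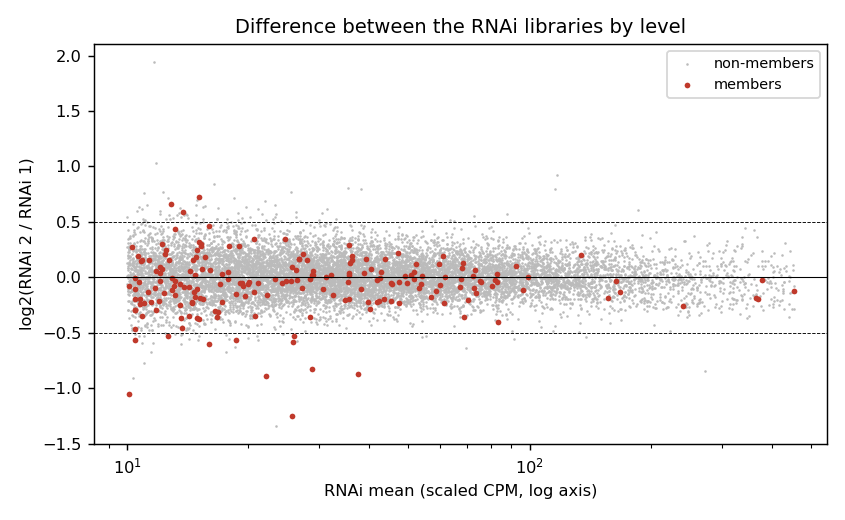
The log2 ratio of RNAi replicate 2 to replicate 1 (y axis) against the RNAi mean in scaled CPM (x axis, log) for the 197 members (red) and 11594 non-members (grey) in the same range; dashed lines mark 0.5 in either direction. Of the 14 members outside the dashed lines, 11 lie below, and all have an RNAi mean under 50.

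The members were spread over the numbered ID prefixes, Csa1G to Csa7G. Their share of the table's genes ran from 0.895% for Csa3G (33 of 3687 genes) and 0.922% for Csa2G (20 of 2169) to 1.43% for Csa5G (33 of 2310) and 1.61% for Csa4G (34 of 2116). No member was among the 79 genes with the prefix CsaUN. The IDs run in steps of 10, and the next ID up or down was present in the table for 253 of the members' 394 neighbouring IDs (64.2%), against 70.1% for non-members with an RNAi mean of at least 10. For 31 members (15.7%) neither neighbouring ID was in the table, against 10.1% of those non-members. The table holds genes with at least 1 plain CPM in 2 libraries, so a missing ID may be a scarcer gene or an unused number.

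Some members stood next to each other in the ID series. At consecutive IDs there were 6 runs with 14 members in all (7.11%), 2 of 3 genes and 4 of 2. The reverse rule, a wild type mean of at least 10 and each RNAi library under 0.5, was met by 91 genes. Of these, 6 stood in such runs (6.59%). Such a share depends on the size of a set, and these sets differ in size, so the shares do not compare how clustered they are. The share for other genes of the table was not computed. The files do not state that ID order is chromosome order. Where neighbours overlap, their reads cannot be told apart unless the counting used strand, and reads of near-identical copies may be split or lost. In the run of Csa5G168990, Csa5G169000 and Csa5G169010, the RNAi replicates stood at 25.3 and 28.3, at 26.4 and 29.4, and at 46.5 and 44.6 scaled CPM. Their wild type reads numbered 1, 0 and 3. Csa5G169090, another member a few IDs further on, had 53.8 and 54.1 scaled CPM in RNAi and 0.219 and 0.286 in wild type. In the pair Csa1G602530 and Csa1G602540 the RNAi libraries held 75.2 and 65.2 scaled CPM for the first gene and 262 and 218 for the second.

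The genes around the run of Csa5G168990 did not share one direction. Immediately before Csa5G168990, Csa5G168980 fell from 412 and 270 scaled CPM in wild type to 125 and 141 in RNAi (log2 fold change -1.32, SE 0.23, limma adjusted p = 0.00717). Further back, Csa5G168910 fell from 1367 and 1876 scaled CPM to 85.8 and 96.5. Between the run and Csa5G169090, Csa5G169060 rose from 1.70 and 0.515 scaled CPM to 68.1 and 72.6, whereas Csa5G169080, with 19.7 and 19.5 in wild type and 20.2 and 18.1 in RNAi, did not pass the test. These IDs and those of the next paragraph were chosen after their values were seen.

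The longest group of members at small ID gaps was made of Csa4G006140, Csa4G006160, Csa4G006180 and Csa4G006190. The RNAi replicates held 175 and 160 scaled CPM of Csa4G006140, 28.7 and 15.5 of Csa4G006160, 13.4 and 12.4 of Csa4G006180, and 24.7 and 23.9 of Csa4G006190. In wild type, the last 3 had 0 reads in both libraries and Csa4G006140 had 6 reads in replicate 2. The non-members just before them also started near 0. Csa4G006070, Csa4G006080, Csa4G006090, Csa4G006100 and Csa4G006130 reached between 2.71 and 20.0 scaled CPM in the RNAi libraries, with at most 0.568 in any wild type library. Over the 13 possible IDs from Csa4G006070 to Csa4G006190, 9 of the 10 genes in the table were higher in RNAi by limma's test (31.0% over all genes), and those 9 all had under 1 scaled CPM in both wild type libraries. The direction of the 4 members among them was fixed by the rule, and the stretch was picked for its values, so the count is a description only. The exception was Csa4G006170, which stood amid the members at 68.1 and 140 scaled CPM in wild type and 87.8 and 93.6 in RNAi (log2 fold change -0.11, SE 0.35, adjusted p = 0.806). The gene after the group, Csa4G006200, fell from 60.5 and 66.5 to 29.2 and 27.0 scaled CPM.

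**Figure D4:**
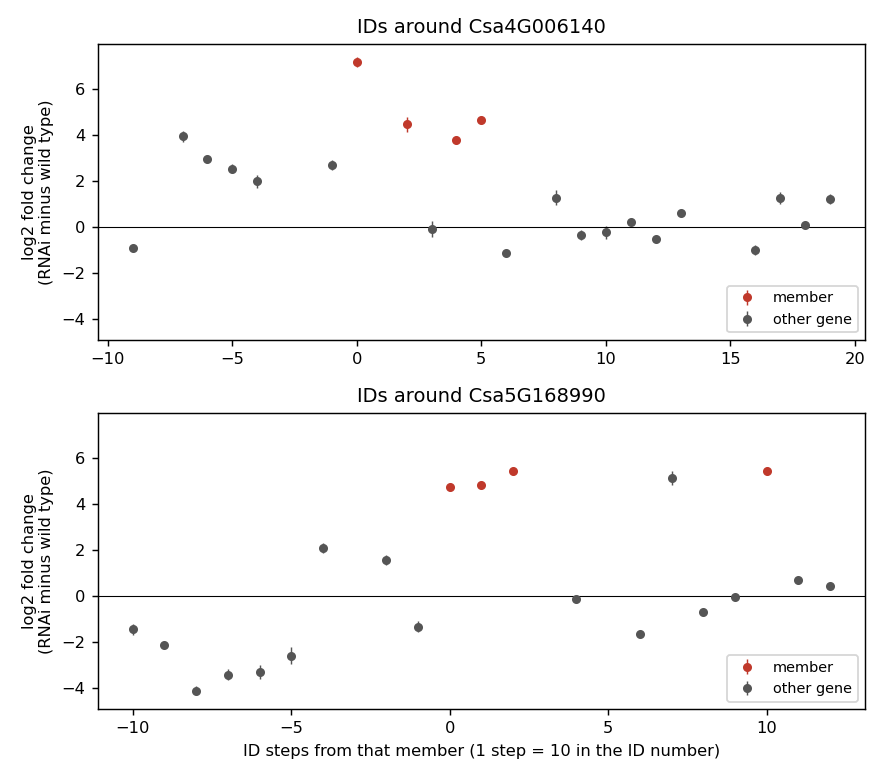
Log2 fold changes (RNAi minus wild type, on log2(scaled CPM + 1); bars are limma's SE) of the genes in the table by ID steps from Csa4G006140 (top) and Csa5G168990 (bottom). Members are red and other genes grey; around Csa4G006140 genes that rose cluster on its left and right with Csa4G006170 near 0 among them, and left of Csa5G168990 most genes fell.

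The members' neighbours in the ID series can be described over the whole set, since the rule did not use them. Of 234 non-members at the next ID, 91 were higher (38.9%, against 31.0% of all genes tested), 62 were lower (26.5%, against 29.5%) and 81 did not pass limma's test. Their median log2 fold change was 0.14, against 0.01 over all tested non-members. A log2 fold change of at least 2 was seen in 33 of them (14.1%), against 7.90% of the non-members. From 2 to 10 ID steps away the share higher ran between 27.1% (at 5 steps) and 37.1% (at 2 steps). It was 37.0% at both 6 and 7 steps, and showed no steady decline with distance. The genes tested fell from 202 at 2 steps to 86 at 10 steps. Their median log2 fold change was 0.18 at 2 and 3 steps and between 0.09 and 0.13 from 4 to 8 steps. At 9 steps it was -0.003 and at 10 steps -0.18. Genes are not replicates, these neighbours shared the libraries with the members, and no test was made of the difference in shares. With plain CPM, 47.9% of the neighbours were higher against 43.1% of all genes, and 16.2% were lower against 19.9%. Without RNAi replicate 1 or 2, 19.2% or 20.5% of the neighbours were higher against 12.8% or 13.5%, and 9.83% or 10.7% were lower against 10.6% or 11.7%.

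The neighbour with the largest rise was Csa3G777560, with 1.09 and 1.20 scaled CPM in wild type and 135 and 129 in RNAi (log2 fold change 5.95, SE 0.14, limma adjusted p = 0.000121). It missed the set only by its wild type level. The neighbour with the largest fall was Csa3G076020, with 93.8 and 93.9 scaled CPM in wild type and 1.89 and 1.37 in RNAi (log2 fold change -5.18, SE 0.17). Members and strongly falling genes could thus stand at adjacent IDs. Of the 234 neighbours, 2 belonged to the opposite set, against 91 of the 17585 genes in the table. That set holds genes with a wild type mean of at least 10 and under 0.5 in both RNAi libraries. A count of 2 is too small to tell these shares apart.

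**Figure D5:**
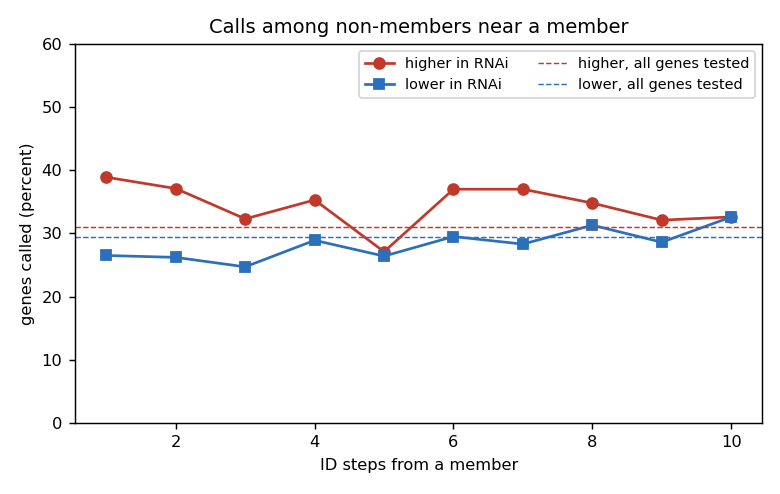
Share of non-members called higher (red) or lower (blue) in RNAi by limma, in percent (y axis), by the number of ID steps from a member (x axis); dashed lines give the shares over all genes tested. The red line is at 38.9% at 1 step, 27.1% at 5 steps, 37.0% at 6 and 7 steps and 32.6% at 10 steps, with no steady decline. The genes tested number 234 at 1 step and 86 at 10 steps.

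The opposite set was smaller, with 91 genes. Its median wild type mean was 21.1 scaled CPM, with a highest value of 363, and 20 of its genes (22.0%) had 0 reads in both RNAi libraries, compared with 27 of the 197 members in wild type. The SD of the log2 ratio between the libraries in which the genes were transcribed was 1.37 in the opposite set and 0.26 among the members. The wild type libraries also differed from each other more in their unscaled reads over the whole table. The chi-square of these reads, divided by its degrees of freedom, was 96.1, against 11.3 for the RNAi libraries. The scaling factors it left out were 0.827 and 0.9225 for wild type replicates 1 and 2, and 1.1499 and 1.1398 for the RNAi replicates. How much of the chi-square came from leaving them out was not tested.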

How the data were processed

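RNA of 4 libraries, 2 per group, was analysed from 1 table of signal per gene that the authors deposited as CPM. The submitters' processing notes name TopHat, a spliced aligner, and HTSeq, a read counter, with no version; for genome build, strand setting and scaling method, nothing is stated in the sources used here. The deposited columns total between 869612.6 and 1209165.3. In each, 100% of values were whole multiples of 1 read to within 0.01 read. edgeR's TMM factors of these reads (0.827, 0.9225, 1.1499, 1.1398) matched those the deposited columns imply. One read is worth 0.0319 to 0.0573 scaled CPM, and 3 reads, the limit a count of 0 allows, 0.0957 to 0.172.

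limma 3.58.1 (R 4.3.3) with a mean-variance trend was fitted to log2(scaled CPM + 1) of the 17491 genes with at least 1 in at least 2 libraries. The script was checked on simulated data. Alternatives changed pseudocount, filter, scaling, thresholds, block, trend and libraries, or used edgeR 4.0.16 and DESeq2 1.42.0 on recovered reads. Neighbours were IDs 10 apart; 6 IDs with a shorter number were left out. The members and the rule for named genes were chosen with earlier results of these data known. That rule named the 5 highest members, the longest runs, genes at the thresholds, the most unequal RNAi libraries, the most changed neighbours and the highest member without wild type reads.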

Additional observations from a re-analysis of the deposited data

How the results depend on the processing

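Pseudocount, filter, trend, scaling, block and model moved neither the direction nor the call of the 23 named genes. Leaving out a library moved no direction. All 197 members passed in each setting that kept all libraries. The rule fixed the direction of the members. The named genes outside the set were also picked by their values in this contrast. Those at the thresholds were picked by levels that fixed a higher value in RNAi, and the neighbours as the most changed. The steadiness of the named genes is therefore a description only. Membership depended on its thresholds: 129 genes with wild type under 0.25, 317 under 1, 296 with an RNAi mean of at least 5 and 107 with at least 20. Without 1 library, between 191 and 264 genes met the rule, and plain CPM gave 242, which included all 197 members. Without RNAi replicate 1 or 2, the calls over the table fell to 2242 or 2368 higher and 1854 or 2055 lower, and without a wild type library they rose to at most 6295 and 6091. Among neighbours, the higher calls ranged from 45 to 103 and the lower calls from 23 to 76 without 1 library, the lowest without RNAi replicate 1. The lone library of a group is then assumed to vary like the other group. Plain CPM gave 38 lower neighbours, raised the share of higher calls over the table from 51.2% to 68.4% and shifted the table's median log2 fold change from 0.03 to 0.38. Members in runs numbered 28 with an RNAi mean of at least 5, and 29 with ID gaps of up to 100, a setting added after seeing the data. With the replicate block, 4900 genes and 81 neighbours were higher, and 4724 and 59 lower. The labels do not pair the numbers, and across genes the difference between wild type replicates correlated with that between RNAi replicates at -0.09 (-0.11 where the mean reached 5). The crossed pairing, also added later, gave 5256 higher and 5065 lower genes. Depth limits the ratios, which rest on few wild type reads.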
